A study of Mus musculus with 15 samples.

Results

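The comparison described here sets GL261 cells grown in a hydrogel labelled D-gel@GSNP against GL261 cells grown in a hydrogel labelled L-gel@GSNP, which carried the same load, and it covers all genes. It uses 6 of the 15 RNA-seq libraries of the study, chosen by their labels alone, with 3 libraries in each group. GL261 is an established mouse glioblastoma line, and its genotype is given as WT. The cells of both groups were sorted as Hoechst-CD133+, added to lyophilised chiral hydrogel on ice for 20 min, and kept with a cytokine cocktail until day 6, with fresh medium on days 2 and 4. Of the other groups, D-gel@NP differed from D-gel@GSNP in its load, PBS held Hoechst-CD133+ cells with buffer and cytokines and no gel, and non-SP held untreated cells from outside the side population (3 libraries each). D and L name the handedness of the hydrogel, while GSNP and NP are code names. No L-gel group with the NP load was analysed here, so the gels could be compared at the GSNP load only. Whether a change came from handedness or from another difference between the cultures of the groups was not tested. The labels do not say whether the replicates were separate cultures, so p-values measure the spread between these samples, which may be technical.

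The side population of a tumour cell line is the fraction that pumps out the dye Hoechst through ABC transporters, and CD133, the product of Prom1, is a surface protein used to mark stem-like glioma cells. Cells of this kind are known for slow cycling, drug efflux and resistance to treatment. A hydrogel is a water-swollen network that surrounds the cells, and cells sense such a network through integrins, mechanosensitive channels and the actin cytoskeleton.

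Depth did not separate the groups. D-gel@GSNP libraries held 44.8, 55 and 44.5 M counts (M stands for mega) and L-gel@GSNP libraries 35, 43.7 and 98.1 M, within a range of 16.6 to 98.1 M over all 15 libraries. Mitochondrially encoded genes took 3.00% ± 0.316 of the counts in D-gel@GSNP and 4.50% ± 0.192 in L-gel@GSNP (SD, n = 3 each). In log2 CPM (counts scaled to library size with TMM factors, per M counts), pairs that crossed the gels were 134.7 to 144.8 apart in Euclidean distance, while pairs inside D-gel@GSNP were 65.1 to 69.0 and pairs inside L-gel@GSNP 56.6 to 66.0 apart. D-gel@GSNP libraries lay 67.6 to 73.9 from the untreated non-SP libraries, and L-gel@GSNP libraries lay 73.4 to 100.7 from D-gel@NP. The distance of D-gel@GSNP libraries to non-SP libraries was thus close to that among D-gel@GSNP libraries, although the labels give their cells as Hoechst-CD133+ like those of L-gel@GSNP.

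Among markers of the labelled cell type Vim was high, while several glial genes were low. Vimentin (Vim), an intermediate filament of glioma lines, was at 922 to 979 CPM in D-gel@GSNP and 983 to 1098 CPM in L-gel@GSNP. The oligodendroglial factor Olig2 had 0 counts in all 6 libraries, Gfap, the astrocyte filament, stayed between 0.0562 and 0.303 CPM in D-gel@GSNP and between 0.113 and 0.18 CPM in L-gel@GSNP, and Nes was at 3.24 to 3.63 CPM in D-gel@GSNP and 1.98 to 2.19 CPM in L-gel@GSNP. S100b reached at most 0.0919 CPM in D-gel@GSNP and 1.19 CPM in L-gel@GSNP. Slc1a3 had 0 counts in D-gel@GSNP and 11 in L-gel@GSNP. Of the other astrocyte markers, Sox9 averaged 58.9 CPM in D-gel@GSNP and 54.4 CPM in L-gel@GSNP, and Gja1 112 and 102 CPM. By contrast, the simple-epithelium keratins Krt8 (723 to 808 CPM in D-gel@GSNP, 885 to 923 CPM in L-gel@GSNP) and Krt18 (997 to 1069 CPM in D-gel@GSNP, 1074 to 1146 CPM in L-gel@GSNP) and the fetal liver gene Afp (109 to 114 CPM in D-gel@GSNP, 59.3 to 70.0 CPM in L-gel@GSNP) were read in every library. The epithelial gene Vil1 was at 28.7 to 34.8 CPM in D-gel@GSNP and 161 to 180 CPM in L-gel@GSNP. Cldn3, also epithelial, was at 120 to 137 CPM in D-gel@GSNP and 100 to 117 CPM in L-gel@GSNP. These epithelial and liver genes were picked after their values were seen. They were also read in the other groups, with Krt8 between 710 and 1018 CPM over all 15 libraries.

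Markers of other cell types moved with the comparison. Summed over 12 genes, macrophage and microglia markers reached up to 13.0 CPM in D-gel@GSNP and were at 38.6 to 45.3 CPM in L-gel@GSNP, with 33.1 to 40.9 CPM in D-gel@NP, 66.8 to 74.8 CPM in PBS and 11.1 to 11.3 CPM in non-SP. Of 8 tested, 5 were lower (Csf1r, Cd68, Adgre1, Itgam and Ptprc) and 0 higher, while Tyrobp and Aif1 were too low to test. Fcer1g (log2 difference 1.26; edgeR adjusted p = 0.0545) and P2ry12 (0.54; 0.136) leaned higher but did not pass. Cx3cr1 leaned lower and did not pass either (-1.52; 0.0933). The falls of Adgre1 and Ptprc rest on low totals, 2 against 27 counts and 6 against 80, with the D-gel total first. T and B cell markers summed to 0.256 to 0.322 CPM in D-gel@GSNP and 0.268 to 0.396 CPM in L-gel@GSNP, with Cd4 and Ms4a1 at 0 counts. Summed astrocyte markers were at 196 to 205 CPM in D-gel@GSNP and 250 to 273 CPM in L-gel@GSNP, and 4 of 7 tested were lower (Apoe, Slc1a2, S100b and Aldh1l1). Endothelial markers summed to 4.96 to 6.61 CPM in D-gel@GSNP and 9.65 to 12.1 CPM in L-gel@GSNP, where only Vwf passed, and it was lower. Neuron markers summed to 0.466 to 0.781 CPM in D-gel@GSNP and 8.38 to 11.8 CPM in L-gel@GSNP, where only Map2 passed, and it was lower. Fibroblast and pericyte markers summed to 689 to 713 CPM in D-gel@GSNP and 1311 to 1471 CPM in L-gel@GSNP, with Dcn and Rgs5 lower and Col1a1 and Pdgfra higher. In oligodendrocyte markers the sum was 37.6 to 42.1 CPM in D-gel@GSNP and 19.0 to 21.5 CPM in L-gel@GSNP, with 1 of 4 tested higher (Pdgfra) and 1 lower. Summed glioma line markers were at 4281 to 4398 CPM in D-gel@GSNP and 4285 to 4717 CPM in L-gel@GSNP, with 4 of 8 higher and 4 lower. Single genes made up most of several sums. Group means in D-gel@GSNP and L-gel@GSNP were 650 and 1372 CPM for Dcn, against 701 and 1391 CPM for the fibroblast sum. Map2 was at 0.573 and 9.72 CPM, against 0.665 and 9.89 CPM for the neuron sum. Pdgfra was at 35.8 and 14.4 CPM, against 40.2 and 20.7 CPM for the oligodendrocyte sum. Csf1r (2.79 and 19.2 CPM) and Cd68 (7.51 and 15.5 CPM) led the macrophage sum. In these bulk samples fewer cells of a type and less RNA per cell cannot be told apart, and the part of other cells in the results was not tested.

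Most genes differed between the gels. Of 17497 genes tested with edgeR's quasi-likelihood test at a Benjamini-Hochberg adjusted p under 0.05, 5339 (30.5%) were higher and 5475 (31.3%) lower in D-gel@GSNP, so 61.8% were called. These shares, from TMM scaling, are the background for every count of genes given below unless upper-quartile factors are named. A bare value in parentheses after a gene is its log2 difference, D-gel@GSNP minus L-gel@GSNP. The typical change was small: the median fold was 1.49 among the higher and 1.84 among the lower genes. At least 2-fold changes were lopsided, with 955 genes (5.46%) higher and 2465 (14.1%) lower, and at least 8-fold changes more so, with 27 higher and 497 lower. Many of the large falls concerned scarce transcripts, since 35.5% of the 2-fold lower and 18.6% of the 2-fold higher genes stayed under 1 CPM in the group where they were higher. Upper-quartile scaling in place of TMM moved the median of all log2 differences by -0.14 and gave 4180 higher and 6778 lower genes, so that 38.1% of the calls were higher, against 49.4% with TMM. The 4180 and 6778 of 17497 genes tested are the background for counts given below with upper-quartile factors. Under that scaling the median of 4 of the 49 gene lists changed sign (fatty acid synthesis, YAP and TAZ targets, integrins, metal response). Groups without overlap of their libraries were seen for 11770 genes (67.3%), with D-gel@GSNP higher in 32.9% and lower in 34.4% of all genes tested.

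**Figure D1:**
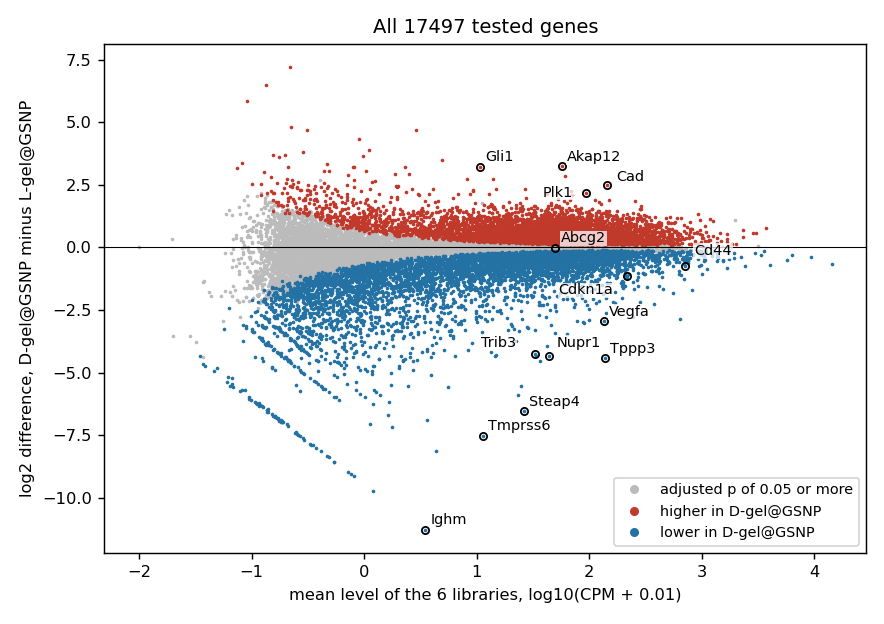
Log2 difference between the D-gel@GSNP and L-gel@GSNP groups (vertical axis) against the mean level of the 6 libraries in CPM on a log10 axis, 1 point per tested gene. Called genes lie on both sides of 0, but the falls reach much further, down to Ighm, while Gli1 and Akap12 are among the large rises.

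Stress response, mitosis and interferon programmes with well-studied promoter elements moved in this comparison, and promoters of leading members that hold the element are printed here. In the integrated stress response, ATF4 binds composite sites with a core of TGATGNAA; mitotic genes carry a cell cycle homology region, TTTGAA, that is bound by the DREAM and MuvB complexes; interferon-stimulated genes carry a response element with the core GAAANNGAA, bound by IRF-containing complexes. Promoters were taken from RefSeq (build GRCm38.p6, 250 bases before to 50 after the start), and each motif was searched on both strands, without regard to overlap with the other motifs. For each list the 3 members with the lowest adjusted p that hold the motif are shown as a window of 100 bases, 5′ to 3′ along the gene, with the matching letters in capitals. The stress response genes shown are Nupr1 at chr7:126625528-126625627 (minus strand), Vldlr at chr19:27216773-27216872 (plus strand) and Trib3 at chr2:152344011-152344110 (minus strand).
Nupr1: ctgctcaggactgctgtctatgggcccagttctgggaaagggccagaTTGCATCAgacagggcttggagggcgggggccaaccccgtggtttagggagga
Vldlr: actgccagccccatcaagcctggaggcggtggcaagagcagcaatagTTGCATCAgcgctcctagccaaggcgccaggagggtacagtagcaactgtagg
Trib3: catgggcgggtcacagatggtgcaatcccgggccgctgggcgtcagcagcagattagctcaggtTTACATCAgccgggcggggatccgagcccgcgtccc

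The mitotic genes shown are the kinase gene Plk1 at chr7:122159385-122159484 (plus strand), the ubiquitin-conjugating enzyme gene Ube2c at chr2:164769852-164769951 (plus strand) and the checkpoint kinase gene Bub1b at chr2:118598161-118598260 (plus strand).
Plk1: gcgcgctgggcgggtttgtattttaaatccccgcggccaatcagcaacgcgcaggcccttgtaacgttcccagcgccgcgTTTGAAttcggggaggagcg
Ube2c: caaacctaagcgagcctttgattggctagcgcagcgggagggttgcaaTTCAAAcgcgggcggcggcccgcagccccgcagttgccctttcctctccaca
Bub1b: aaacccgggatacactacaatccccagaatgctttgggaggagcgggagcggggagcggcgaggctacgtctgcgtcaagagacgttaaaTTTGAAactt

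The interferon-response genes shown are the GTPase gene Gbp3 at chr3:142559957-142560056 (plus strand), the RNA sensor gene Ddx58 at chr4:40239776-40239875 (minus strand) and the GTPase gene Gbp2 at chr3:142620559-142620658 (plus strand). In Gbp3 overlapping matches form the capital run.
Gbp3: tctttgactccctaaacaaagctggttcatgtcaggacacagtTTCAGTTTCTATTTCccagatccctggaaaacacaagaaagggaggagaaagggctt
Ddx58: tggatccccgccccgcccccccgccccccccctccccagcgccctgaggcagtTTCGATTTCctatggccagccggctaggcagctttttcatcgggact
Gbp2: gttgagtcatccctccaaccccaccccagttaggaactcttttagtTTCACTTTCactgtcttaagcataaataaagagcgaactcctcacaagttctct

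The motifs were more common in these lists than among promoters at large. TGATGNAA was found in 7 of 15 stress response promoters (46.7%), against 4.51% of 27025 genes with a promoter and 3.00% of the tested genes with a promoter. TTTGAA was found in 16 of 21 mitotic promoters (76.2%), against 20.2% of all and 15.4% of tested. GAAANNGAA was found in 15 of 22 interferon-response promoters (68.2%), against 9.76% of all and 8.75% of tested. For the lists of lysosomal genes with CACGTG the count was 6 of 21 (28.6%), against 8.09% of all and 11.2% of tested, and for sterol synthesis genes with TCACCCCAC it was 1 of 16 (6.25%), against 0.614% and 0.735%. The lists were made up of known members of these programmes. A high share follows from that choice and is no result of the gel comparison. These are matches of letters and do not show binding.

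Genes of cell division were higher in D-gel@GSNP. Of 31 tested DNA replication genes, 30 rose and 0 fell, with a median log2 difference of 0.86, against -0.04 for all genes, and of 25 genes of G2 and mitosis 24 rose and 0 fell, with a median of 0.94. Plk1, the kinase that drives mitotic entry, had 164, 156 and 144 CPM in the D-gel@GSNP libraries and 31.3, 38.3 and 33.2 CPM in the L-gel@GSNP libraries. The groups were far apart, with a log2 difference of 2.18 (95% interval 2.03 to 2.33; edgeR adjusted p = 1.87e-16). Rrm2, the subunit of ribonucleotide reductase that limits nucleotide supply in S phase, had 456, 427 and 436 CPM in D-gel@GSNP, against 188, 196 and 151 CPM in L-gel@GSNP. Ube2c, the ubiquitin-conjugating enzyme working with the anaphase-promoting complex, had 316, 323 and 308 CPM in D-gel@GSNP and 136, 141 and 133 CPM in L-gel@GSNP. In both genes every D-gel@GSNP library was above every L-gel@GSNP library, and the log2 differences were 1.30 (SE 0.0652; edgeR adjusted p = 1.21e-13) and 1.21 (SE 0.0467; edgeR adjusted p = 1.97e-15). Mki67, the antigen of cycling cells, was at 559, 529 and 629 CPM in D-gel@GSNP and 320, 331 and 274 CPM in L-gel@GSNP, a log2 difference of 0.89 (edgeR adjusted p = 3.87e-11). Only Pola1 (log2 difference 0.16; edgeR adjusted p = 0.111) in the replication list and Nusap1 (-0.08; 0.336) in the mitosis list did not pass. The summed level of the mitosis list was 5328 to 5521 CPM in D-gel@GSNP and 2758 to 3271 CPM in L-gel@GSNP, with L-gel@GSNP 3 lowest.

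Regulators upstream of S phase followed. Among 18 tested G1 cyclins, inhibitors and pocket proteins, 12 rose and 5 fell. E2f8, an E2F family repressor that is itself an E2F target, had 123, 111 and 111 CPM in D-gel@GSNP and 26.2, 27.7 and 26.4 CPM in L-gel@GSNP (4.29-fold higher; edgeR adjusted p = 4.68e-16). Ccne1, cyclin E1, had 55.3, 47.9 and 48.8 CPM in D-gel@GSNP and 16.2, 18 and 13.8 CPM in L-gel@GSNP (1.67; edgeR adjusted p = 8.90e-13). The genes that fell were the CDK inhibitors Cdkn2b (-1.45) and Cdkn1b (-0.62), the pocket proteins Rb1 (-0.44) and Rbl2 (-0.49), and cyclin D1, Ccnd1 (-0.24). The inhibitors Cdkn2c (0.72) and Cdkn2d (0.42) rose. DNA repair genes moved both ways, with 17 of 24 higher, among them Parp1 (1.05), the exonuclease gene Exo1 (0.87) and Rad51ap1 (0.90), and 4 lower, namely Xpc (-1.33), Atr (-0.48), Polk (-0.46) and Ddb2 (-0.40). Xpc and Ddb2 recognise lesions for nucleotide excision repair. Of 19 chromatin regulators, 12 rose and 4 fell. Lmnb1, the nuclear lamina protein whose loss marks senescent cells, had 443, 443 and 442 CPM in D-gel@GSNP and 139, 145 and 133 CPM in L-gel@GSNP (1.67; edgeR adjusted p = 9.82e-16), and the maintenance methyltransferase Dnmt1 rose by 1.16 and its partner Uhrf1 by 1.14 on the log2 scale.

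Targets of p53 went the other way. Of 23 tested, 18 fell and 2 rose (19 and 1 with upper-quartile factors), and the median log2 difference was -0.75. Cdkn1a, which encodes the CDK inhibitor p21, had 135, 141 and 131 CPM in D-gel@GSNP, against 292, 285 and 329 CPM in L-gel@GSNP. That is a log2 difference of -1.15 (95% interval -1.27 to -1.04; edgeR adjusted p = 7.18e-14). Trp53inp1, a cofactor that sustains p53 activity, had 57.5, 64.8 and 65.3 CPM in D-gel@GSNP and 441, 434 and 423 CPM in L-gel@GSNP, a log2 difference of -2.79 (edgeR adjusted p = 9.37e-19). This was the largest fall among the 23 genes. The antiproliferative gene Btg2 (-1.96), the death receptor Fas (-2.19), Sesn1 (-1.54), Gdf15 (-1.30) and Mdm2, the ligase that degrades p53 (-0.55), also fell. Plk3 (0.41) and Tnfrsf10b (0.18) rose. Trp53 itself was higher, at 220, 221 and 214 CPM in D-gel@GSNP and 147.8, 160.1 and 145.3 CPM in L-gel@GSNP (0.53; edgeR adjusted p = 5.87e-08), and was looked up after the list was seen.

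**Figure D2:**
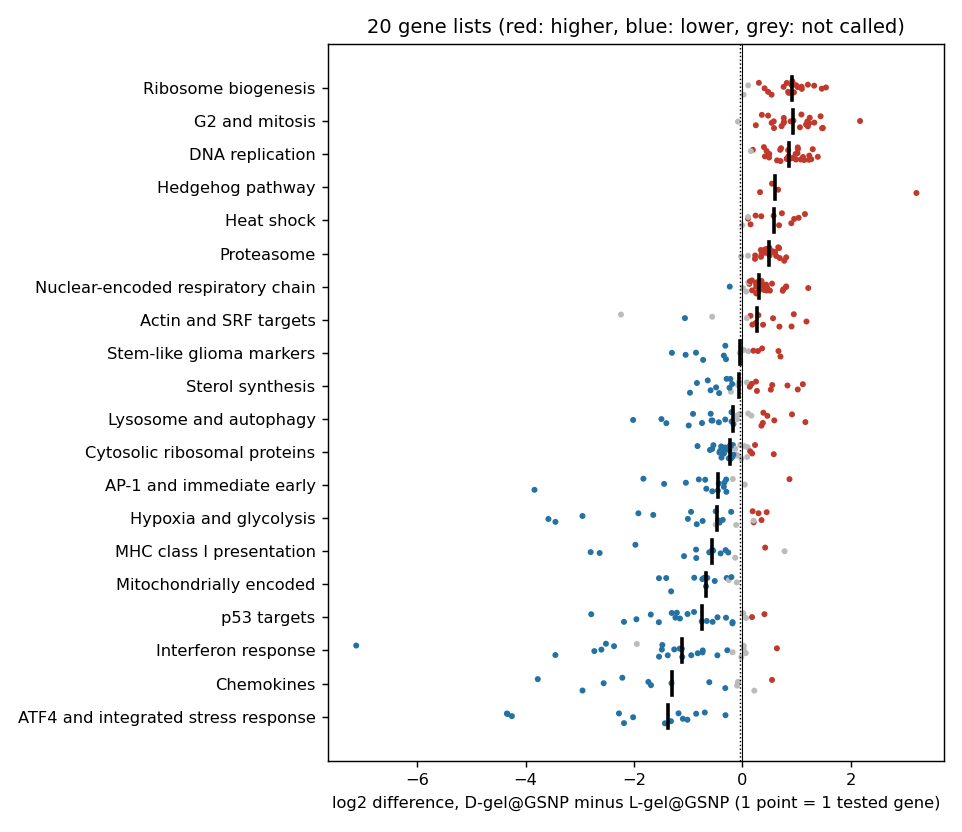
Log2 differences (D-gel@GSNP minus L-gel@GSNP, horizontal axis) of the tested members of 20 gene lists, with 1 point per gene, a black bar at the median of each list and a dotted line at the median of all genes. Ribosome biogenesis, mitosis and replication lie to the right of 0 almost whole, ATF4 targets lie to the left whole, and lists such as sterol synthesis and stem-like markers spread to both sides.

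Genes of ribosome biogenesis, the proteasome, heat shock and the nuclear respiratory chain were also mostly higher. Of 22 ribosome biogenesis genes, 20 rose and 0 fell (median log2 difference 0.92), of 25 proteasome genes 23 rose and 0 fell (0.50), of 13 heat shock genes 11 rose and 0 fell (0.58), and of 29 nuclear genes of the respiratory chain 25 rose and 1 fell (0.30). The last count depends on scaling, since 15 of the 29 rose under upper-quartile factors. Polr1b, a core subunit of RNA polymerase I, had 69.3, 73.7 and 68.1 CPM in D-gel@GSNP and 23.8, 24 and 24.4 CPM in L-gel@GSNP (1.55; edgeR adjusted p = 2.83e-14). Rrp9, a component of the small-subunit processome, had 59.5, 60.5 and 57.6 CPM in D-gel@GSNP and 22.3, 21.6 and 20.5 CPM in L-gel@GSNP (1.47; edgeR adjusted p = 2.12e-14). Both genes varied little within a group. Hspd1, the mitochondrial chaperonin, was 2.06-fold and its partner Hspe1 1.87-fold higher, and the cytosolic chaperone genes Hsph1 and Hsp90ab1 were 2.23-fold and 1.60-fold higher. Cad, the enzyme that starts pyrimidine synthesis, also rose, with 248, 249 and 242 CPM in D-gel@GSNP and 39.6, 44 and 47.2 CPM in L-gel@GSNP (2.49, 95% interval 2.33 to 2.65; edgeR adjusted p = 5.17e-17).

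Ribosomal proteins and the mitochondrial genome did not share this rise. Of 36 cytosolic ribosomal protein genes, 24 fell and 4 rose (29 and 1 with upper-quartile factors), by a median of -0.23. Rpl23 (-0.60) and Rps4x (-0.53) fell and Rps2 rose (0.58); without L-gel@GSNP 3, 2 of the 36 rose. Genes of this family have many near-identical copies, and how reads with several matches were counted is not given, so single values are uncertain. Of the 13 mitochondrially encoded genes, 11 fell and 0 rose, with a median of -0.67. Cytochrome oxidase subunit gene mt-Co1 had 12364, 10685 and 10569 CPM in D-gel@GSNP and 18131, 17799 and 16706 CPM in L-gel@GSNP (-0.65; edgeR adjusted p = 1.71e-09). D-gel@GSNP 1 was the highest of its group and still below every L-gel@GSNP library. Within complex III, the nuclear gene Uqcrc1 rose by 1.22 (edgeR adjusted p = 2.04e-14) and the mitochondrial gene mt-Cytb fell by 0.51 on the log2 scale (edgeR adjusted p = 6.32e-07).

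Genes of the integrated stress response were lower without exception among those tested. This pathway slows translation through phosphorylated eIF2 when amino acids run short or proteins misfold, while the factor ATF4 switches on its targets. All 14 tested members fell, with a median log2 difference of -1.37, and 11 of them at least 2-fold. Nupr1, a stress-induced chromatin protein, had 4.35, 3.56 and 4.76 CPM in D-gel@GSNP and 80.3, 89.3 and 84.7 CPM in L-gel@GSNP. Trib3, a pseudokinase induced by ATF4, had 2.54, 3.77 and 3.54 CPM in D-gel@GSNP and 68.1, 62 and 59.5 CPM in L-gel@GSNP. Vldlr, a lipoprotein receptor, had 33.6, 36.2 and 33.5 CPM in D-gel@GSNP and 140, 124 and 154 CPM in L-gel@GSNP. The 3 genes, whose promoters are printed above, differed by -4.34, -4.26 and -2.02 on the log2 scale (edgeR adjusted p = 2.97e-19, 5.84e-15 and 1.38e-16). Atf4 itself fell by 0.85 and Asns, the asparagine synthetase, by 1.18. Smallest was the fall of Eif4ebp1, a translation repressor, by 0.31.

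Neighbouring metabolism split within its lists. In serine and one-carbon metabolism 6 of 12 genes fell and 4 rose. The mitochondrial enzyme gene Aldh1l2 had 4.03, 2.68 and 3.06 CPM in D-gel@GSNP and 63.9, 66.5 and 62.3 CPM in L-gel@GSNP (-4.31; edgeR adjusted p = 1.08e-18), and mitochondrial Mthfd2 (-1.10) and Psph (-1.28) also fell, whereas the cytosolic enzymes Mthfd1 (1.28) and Shmt1 (0.78) rose. Among amino acid carriers 7 of 14 fell and 2 rose. The glycine carrier Slc6a9 (-2.61) and the neutral carriers Slc38a4 (-1.64) and Slc38a2 (-0.55) fell, and the large neutral carrier Slc7a5 rose by 0.75. Aminoacyl-tRNA synthetases split into 10 lower and 7 higher of 20, or 12 lower and 4 higher with upper-quartile factors. Cars fell by 0.78 and Vars rose by 1.35. ER chaperones divided evenly, 9 higher and 9 lower of 19, against 5 and 10 with upper-quartile factors. Xbp1, the transcription factor of the unfolded protein response, had 40.4, 44.9 and 37.2 CPM in D-gel@GSNP and 126, 116 and 126 CPM in L-gel@GSNP (-1.59; edgeR adjusted p = 2.31e-15), and Herpud1 (-1.22), Dnajb9 (-1.22) and Hspa5 (-0.47) fell beside it, while Dnajb11 (0.85), Manf (0.41) and Hyou1 (0.34) rose.

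Genes of the hypoxia and glycolysis list were lower more often than higher. Of 22 tested, 14 fell and 5 rose (15 and 2 with upper-quartile factors), with a median of -0.47. Vegfa, the angiogenic growth factor, had 27.4, 36.5 and 28.7 CPM in D-gel@GSNP and 226, 178 and 313 CPM in L-gel@GSNP. Bnip3, a mitophagy receptor, had 8.48, 14.5 and 8.75 CPM in D-gel@GSNP and 120, 74.6 and 154 CPM in L-gel@GSNP. Ndrg1, a HIF target, had 22.5, 22.9 and 19.7 CPM in D-gel@GSNP and 82.2, 62.1 and 102 CPM in L-gel@GSNP. In each of the 3 genes L-gel@GSNP 2 was the lowest and L-gel@GSNP 3 the highest of the L-gel libraries, but the groups did not overlap. The log2 differences were -2.95 for Vegfa (edgeR adjusted p = 1.74e-13), -3.45 for Bnip3 (1.07e-11) and -1.92 for Ndrg1 (5.49e-11). P4ha1, a collagen prolyl hydroxylase, fell by 1.64. Among glycolytic enzymes, Aldoa (-0.84), Pgk1 (-0.73) and Gpi1 (-0.36) fell, Hk1 (0.45), Hk2 (0.36) and Pgam1 (0.30) rose, and Ldha did not pass (-0.11; edgeR adjusted p = 0.0763).

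Interferon-response genes were lower. Of 28 tested, 20 fell and 1 rose, with a median log2 difference of -1.11. Gbp3, an interferon-inducible GTPase, had 409, 403 and 416 CPM in D-gel@GSNP and 987, 1010 and 939 CPM in L-gel@GSNP (-1.26, 95% interval -1.35 to -1.17; edgeR adjusted p = 4.68e-16). Mx1, an antiviral GTPase, had 0.279, 0.581 and 0.643 CPM in D-gel@GSNP, against 4.39, 5.57 and 6.56 CPM in L-gel@GSNP (-3.45; edgeR adjusted p = 1.96e-12). Gbp3 differed at high counts and Mx1 at low ones, and neither group overlapped the other. Among regulators, Irf1 fell by 1.16, Irf9 by 0.73 and Stat2 by 0.28 (edgeR adjusted p = 0.0232), while Irf7 (-0.18; edgeR adjusted p = 0.416) did not pass. The RNA sensor Ifih1 rose by 0.64. Antigen presentation by MHC class I fell in 12 of 15 genes and rose in 1. Psmb8, an immunoproteasome subunit, had 0.442, 1.01 and 1.1 CPM in D-gel@GSNP and 6.45, 5.61 and 5.95 CPM in L-gel@GSNP (-2.80; edgeR adjusted p = 1.03e-08). The light chain gene B2m fell by 0.54, the peptide pump subunit Tap1 by 1.08 and the loading chaperone Tapbp by 0.85.

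Chemokines formed a further group of falls, with 9 of 13 lower and 1 higher and a median of -1.31. Cxcl5, a neutrophil attractant, had 40.1, 42.3 and 40.1 CPM in D-gel@GSNP and 207, 202 and 161 CPM in L-gel@GSNP (-2.22; edgeR adjusted p = 9.26e-16). Its relatives Cxcl1 (-1.73) and Cxcl2 (-1.69) fell with it, and Cxcl3 rose by 0.55. The monocyte attractant Ccl7 had 10 counts in all of D-gel@GSNP and 180 in all of L-gel@GSNP, so its large fall (-3.78) rests on low levels. For the NF-kB list, 7 of 20 fell and 5 rose, shares near the background. At least 2-fold, 5 fell and 0 rose, where 14.1% and 5.46% of all genes tested did. Lcn2, given below with the iron genes, had the lowest adjusted p of this list and fell (-5.57). The subunits Nfkb1 (0.61), Nfkb2 (0.63) and Rela (0.42) rose, and the feedback inhibitors Nfkbia (-1.10) and Tnfaip3 (-0.96) fell. Nfkbia had 67.1, 69.9 and 63.4 CPM in D-gel@GSNP, below all L-gel@GSNP libraries at 154, 140 and 134 CPM. In the list of gp130 signalling 6 of 18 genes fell and 4 rose, a share near the background. Il6st, which encodes gp130, had 92.5, 90.5 and 93.8 CPM in D-gel@GSNP and 181, 185 and 178 CPM in L-gel@GSNP (-0.97; edgeR adjusted p = 1.77e-12). The receptor genes Osmr (-2.12) and Il11ra1 (-1.23) fell too, while the feedback gene Socs3 did not pass (-0.02; edgeR adjusted p = 0.896).

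Ligands that bind receptors on immune cells did not move as a group, with 6 of 12 lower and 4 higher. Cd80, a costimulatory ligand, had 2.24, 1.65 and 1.61 CPM in D-gel@GSNP and 12.5, 13 and 15 CPM in L-gel@GSNP (-2.90; edgeR adjusted p = 2.75e-13), and Vtcn1, which encodes B7-H4, fell by 1.63. Cd274, which encodes PD-L1, fell by 1.00. Lgals9, galectin 9, rose to 231, 200 and 218 CPM in D-gel@GSNP, against 92.2, 86.3 and 87.3 CPM in L-gel@GSNP (1.29; edgeR adjusted p = 7.18e-13), and Cd276, which encodes B7-H3, rose by 0.94.

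Immediate early genes of the AP-1 family were lower in 14 of 17 cases and higher in 1, with a median of -0.45. Fos had 3.28, 2.6 and 2.41 CPM in D-gel@GSNP and 39.1, 31.3 and 47.6 CPM in L-gel@GSNP. This was the widest difference of the list at -3.84 (95% interval -4.18 to -3.49; edgeR adjusted p = 1.21e-14). Ier3 (-1.44), Maff (-0.80), Jund (-0.68) and Jun (-0.66) fell and Fosl1 (0.87) rose. ERK feedback genes did not follow Fos: 5 of 13 rose and 3 fell. Etv4 (0.85) and Etv5 (0.57), ETS factors downstream of ERK, rose, while the phosphatase Dusp6 did not pass (-0.06; edgeR adjusted p = 0.471). Under upper-quartile factors 4 of the 13 rose and 6 fell.

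Lysosome and lipid genes were divided. In the lysosome and autophagy list 14 of 26 genes fell and 7 rose. Gabarapl1, an autophagosome membrane protein, had 69.3, 65.1 and 70.9 CPM in D-gel@GSNP and 192, 191 and 194 CPM in L-gel@GSNP (-1.49; edgeR adjusted p = 1.10e-15). The protease gene Ctsd (-1.40), the autophagy receptor Sqstm1 (-0.99) and Map1lc3b (-0.91) fell with it. Gpnmb (0.92) and Tfeb (1.17), a master regulator of lysosomal genes, rose. In sterol synthesis 10 of 24 fell and 9 rose; 5 rose without L-gel@GSNP 3 and also with upper-quartile factors. Among them Hmgcs1 (-0.97), Fdft1 (-0.84) and Sqle (-0.43), enzymes of synthesis, fell. Among fatty acid genes 6 of 14 rose and 5 fell, with Fasn (1.10), Acaca (1.08), Elovl6 (1.22) and Me1 (1.24) higher and Scd1 (-0.40) and Lpin1 (-1.45) lower.

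Signals that shape tissue growth moved to differing degrees. Gli1, the transcription factor and readout of Hedgehog signalling, had 18.9, 19.8 and 19.6 CPM in D-gel@GSNP and 1.67, 2.48 and 2.07 CPM in L-gel@GSNP. The log2 difference was 3.22 (95% interval 2.90 to 3.53; edgeR adjusted p = 4.26e-14). The signal transducer Smo (0.66), the inhibitor Sufu (0.55) and the receptor Ptch1 (0.33), itself a target, rose less, so that all 4 tested members were higher, while Gli2, Gli3, Hhip and Boc were among those too low to test. In the Wnt list 7 of 13 rose and 2 fell. Nkd1, a feedback inhibitor, had 385, 376 and 352 CPM in D-gel@GSNP and 156, 168 and 170 CPM in L-gel@GSNP (1.17; edgeR adjusted p = 4.82e-13), and the factor Tcf7 rose by 1.19. Other Wnt readouts were level, with Axin2 at 0.07 (edgeR adjusted p = 0.308) and Lgr5 at 0.03 (0.710). Of 8 Notch genes 4 rose, among them Jag1 (0.70), and 2 fell; the fall of the ligand gene Dll1 (-1.06) was lost without L-gel@GSNP 3 (edgeR adjusted p = 0.067). TGF-beta and BMP genes were even, 5 higher and 5 lower of 16, with Tgfb1 (0.71) and Smad6 (0.82) higher and Smad3 (-0.76) lower.

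The surface and skeleton that meet the gel changed gene by gene. Of 14 actin and SRF genes, 10 rose and 1 fell: Actg1 rose by 0.91, Cnn2 by 0.95, Actb by 0.57 and the factor Srf by 0.69. Endocytosis genes were higher in 17 of 24 cases and lower in 5. The lipoprotein receptor Scarb1 had 75.4, 72.1 and 66.8 CPM in D-gel@GSNP and 19.8, 19.4 and 22.3 CPM in L-gel@GSNP (1.79; edgeR adjusted p = 9.38e-15), and the clathrin light chain Clta (0.70), the adaptor subunit Ap2a1 (1.15) and Ehd1 (0.93) rose. Targets of YAP and TAZ were near or below the background, 5 higher and 3 lower of 16. With upper-quartile factors 5 were higher and 7 lower, beside 4180 and 6778 of all 17497 genes. The classical readouts Ccn1 (0.05; edgeR adjusted p = 0.766), Ccn2 (-0.16; 0.243) and Ankrd1 (0.08; 0.387) did not pass, although Tead4 (1.49) and Yap1 (0.51) rose. Among mechanosensing genes 6 of 17 rose and 6 fell. Piezo1, a stretch-activated channel, rose by 0.87 and lamin A, Lmna, by 0.67, while the osmosensitive channel Tmem63a fell by 1.04 and the heparan sulfate receptor Sdc4 by 0.80.

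Matrix genes moved both ways, some of them far. Of 26 collagen and matrix genes 10 fell and 9 rose. Col6a1, a chain of the beaded-filament collagen VI, had 18.6, 18.5 and 17.8 CPM in D-gel@GSNP and 127, 142 and 145 CPM in L-gel@GSNP (-2.91; edgeR adjusted p = 2.54e-18). Col6a3 had 1.47, 1.5 and 1.38 CPM in D-gel@GSNP and 24.6, 27.5 and 33 CPM in L-gel@GSNP (-4.29; edgeR adjusted p = 3.09e-16), and Col6a2 fell as well (-6.17), so the 3 chains measured were lower together. The basement membrane chains Col4a1 (0.73), Col4a2 (0.42) and Lamc1 (0.43) and the matrix protein Sparc (0.65) rose. Integrins and focal adhesion genes split into 9 lower and 8 higher of 20. The collagen-binding Itga2 had 28.3, 36 and 29.5 CPM in D-gel@GSNP and 106, 106 and 103 CPM in L-gel@GSNP (-1.74; edgeR adjusted p = 4.22e-15), and the collagen receptor Itga11 (-5.09, outside the list) and the laminin receptor Itga7 (-2.85) fell, whereas the fibronectin receptor Itga5 (0.94) and the laminin receptor Itga3 (0.52) rose. Mesenchymal transition genes were mixed, 5 higher and 6 lower of 14, with the keratin Krt19 (-0.95) and Zeb1 (-0.53) lower and Cdh2 (0.77) higher; without D-gel@GSNP 2, 3 rose.

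**Figure D3:**
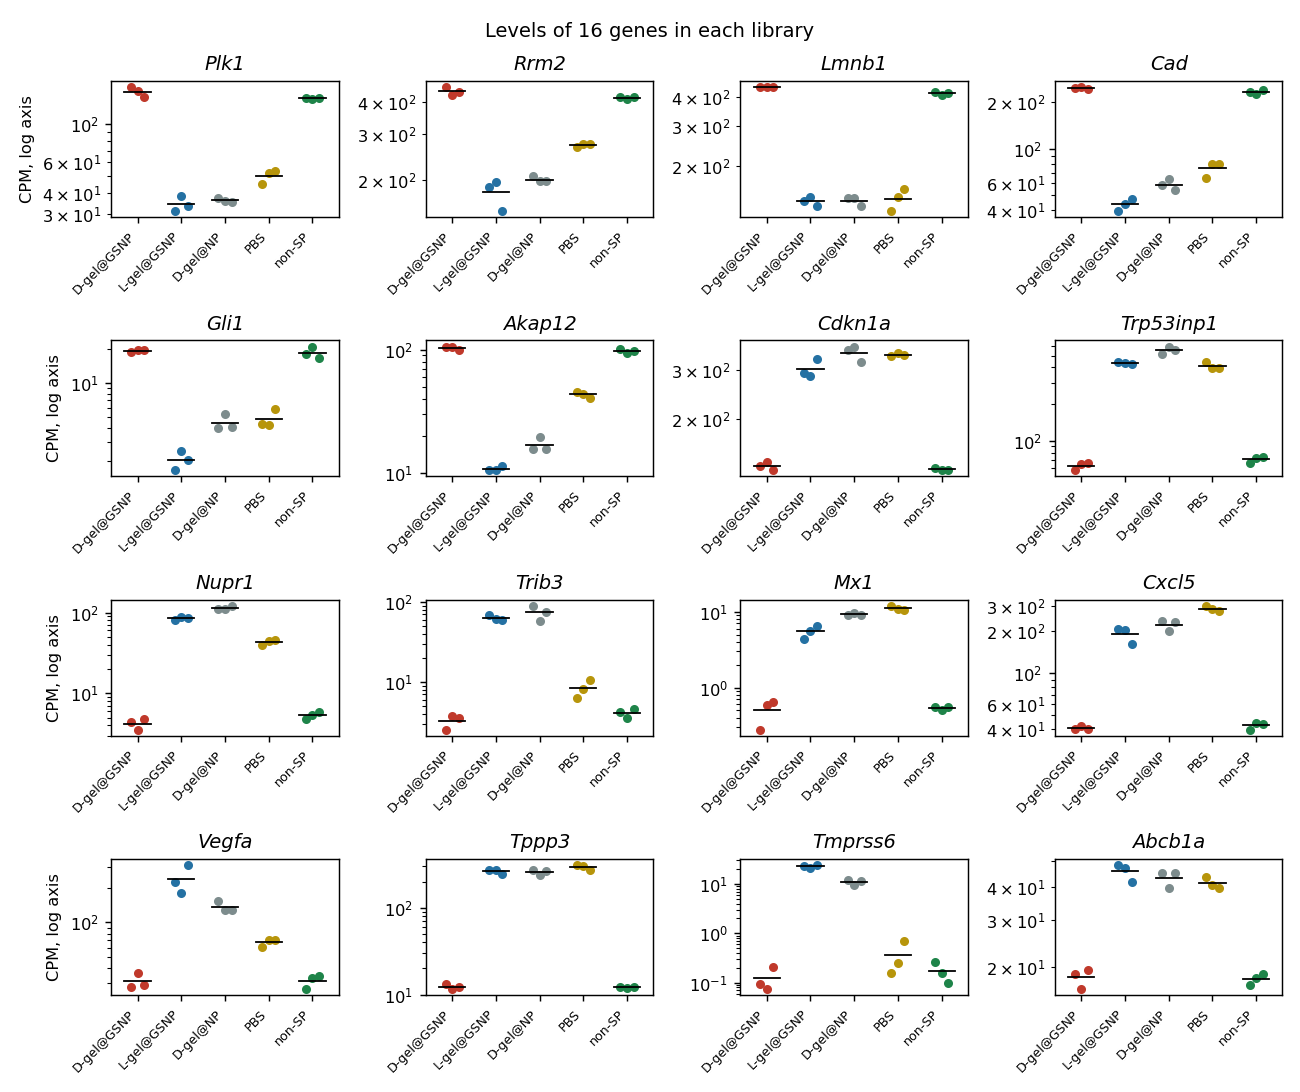
Levels of 16 genes in CPM (log axis) in each of the 15 libraries, with 1 point per library and a bar at the group mean; groups run from D-gel@GSNP and L-gel@GSNP to D-gel@NP, PBS and non-SP. In each panel the D-gel@GSNP points lie apart from the L-gel@GSNP points, as for Plk1 (144 to 164 CPM in D-gel@GSNP, 31.3 to 38.3 CPM in L-gel@GSNP).

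Genes tied to the stem-like label gave no common direction. Of 15 stem-like markers tested, 7 fell and 5 rose, with a median of -0.05. Cd44, the hyaluronan receptor, had 543, 543 and 531 CPM in D-gel@GSNP and 919, 900 and 853 CPM in L-gel@GSNP (-0.72, 95% interval -0.81 to -0.63; edgeR adjusted p = 3.04e-12). Sox4 had 145, 168 and 148 CPM in D-gel@GSNP, against 363, 361 and 410 CPM in L-gel@GSNP (-1.30; edgeR adjusted p = 3.98e-14). The tetraspanin Cd9 (-0.86) and the RNA-binding factor Msi2 (-1.05) fell, while Ezh2 (0.67), the integrin Itga6 (0.37) and Aldh1a1 (0.29) rose. Nes rose by 0.70 (edgeR adjusted p = 0.00672) at a level of a few CPM, and when all libraries were thinned to the depth of the shallowest it did not pass (edgeR adjusted p = 0.145). Myc did not pass, with 189, 208 and 177 CPM in D-gel@GSNP and 187, 194 and 213 CPM in L-gel@GSNP (-0.05, 95% interval -0.18 to 0.08; edgeR adjusted p = 0.535); under upper-quartile factors it was lower (-0.19). Prom1, the gene of CD133, had 8 counts in all of D-gel@GSNP and 35 in all of L-gel@GSNP, too few to test, and the ratio of L-gel to D-gel of 3.39 has an exact counting interval of 1.54 to 8.45 that covers counting error only. Most of those 35 counts lay in L-gel@GSNP 3, at 0.307 CPM, against 0.0566 and 0.0451 CPM in the other L-gel libraries.

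ABC drug efflux pumps, the class of transporter by which the side population is defined, were lower in 8 of 14 cases and higher in 3. Abcb1a, the P-glycoprotein gene, had 18.8, 16.6 and 19.4 CPM in D-gel@GSNP and 48.1, 46.9 and 41.7 CPM in L-gel@GSNP. Its log2 difference was -1.32 (95% interval -1.48 to -1.15; edgeR adjusted p = 2.06e-12), and the second P-glycoprotein gene Abcb1b fell by 0.49. Per length, in FPKM (fragments per kilobase and M counts), Abcb1b was the higher of the pair, at 6.51 FPKM in D-gel@GSNP and 9.60 FPKM in L-gel@GSNP, while Abcb1a was at 3.23 FPKM in D-gel@GSNP and 8.46 FPKM in L-gel@GSNP (group means). Abcg2, the pump classically tied to Hoechst efflux, had 51.1, 47.9 and 50.9 CPM in D-gel@GSNP and 49.3, 50.2 and 51.5 CPM in L-gel@GSNP. These libraries overlapped, and the difference of -0.01 had a 95% interval of -0.13 to 0.10 (edgeR adjusted p = 0.872), although it was lower under upper-quartile factors (-0.16; edgeR adjusted p = 0.0185). Abcc4 rose by 0.83 and Abcc5 fell by 0.48.

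The largest single changes among genes whose group mean reached 5 CPM were in genes of varied function. Syt13, a synaptotagmin, rose most of these, at 5.52, 5.71 and 5.58 CPM in D-gel@GSNP and 0.396, 0.0901 and 0.198 CPM in L-gel@GSNP (4.69; edgeR adjusted p = 3.68e-12). Akap12, a scaffold for protein kinases A and C, had 106, 105 and 99.4 CPM in D-gel@GSNP and 10.6, 10.7 and 11.5 CPM in L-gel@GSNP (3.24; edgeR adjusted p = 9.89e-19). Kctd12 (2.87), Clec1a (2.72) and the ERK scaffold Ksr2 (2.71) rose as well. A RIKEN transcript, 1700047I17Rik2, was uneven within its group, at 6.5, 1.05 and 19.5 CPM in D-gel@GSNP and 0.594, 0.991 and 0.753 CPM in L-gel@GSNP.

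Falls at that level were deeper. Ighm, the heavy chain gene of IgM, had 0 counts in D-gel@GSNP and 1201 in all of L-gel@GSNP, so it was at least 310-fold lower against a floor of 3 counts over the group. Atp2a3, an ER calcium pump, had 4 counts in D-gel@GSNP and 1525 in L-gel@GSNP. Tppp3, a tubulin polymerisation-promoting protein, had 13.2, 11.6 and 12.2 CPM in D-gel@GSNP and 275, 276 and 244 CPM in L-gel@GSNP (-4.42, 95% interval -4.58 to -4.27), with the lowest adjusted p of the named genes (edgeR adjusted p = 3.95e-21). Its relative Tppp had 0.652, 0.88 and 0.781 CPM in D-gel@GSNP and 45.5, 49 and 43 CPM in L-gel@GSNP (-5.87; edgeR adjusted p = 2.15e-19). Among tubulin and microtubule genes these stood out, since 9 of 17 rose, such as Tubb2a (1.12) and Tubb6 (1.13), and 5 fell. Gda, guanine deaminase, fell by 5.53 on the log2 scale.

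Several of the deep falls handle iron. Tmprss6, the protease that limits hepcidin, had 0.0931, 0.0749 and 0.207 CPM in D-gel@GSNP and 23.1, 21.1 and 23.9 CPM in L-gel@GSNP (-7.51; edgeR adjusted p = 2.31e-15). Lcn2, which binds iron-carrying siderophores, had 0.233, 0.3 and 0.138 CPM in D-gel@GSNP and 12.2, 9.87 and 10.7 CPM in L-gel@GSNP (-5.57; edgeR adjusted p = 4.28e-13). Steap4, a metalloreductase outside the iron list, had 0.21, 1.12 and 0.23 CPM in D-gel@GSNP and 54.3, 53.1 and 48.4 CPM in L-gel@GSNP (-6.53; edgeR adjusted p = 6.57e-14), with D-gel@GSNP 2 the highest of its group. The ferroxidase Cp also fell (-3.10), and the ferritin heavy chain Fth1 rose by 0.84. Over the iron list 6 of 13 fell and 4 rose, or 7 and 2 with upper-quartile factors, and 2 rose without L-gel@GSNP 2. In the list of NRF2 targets 8 of 19 rose and 7 fell, with Gclm (0.69) higher and Nfe2l2, the factor itself, lower (-0.83).

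Receptor and survival genes were near the background. Of 16 receptor tyrosine kinases 6 rose and 6 fell. Met, the receptor of hepatocyte growth factor, had 156, 158 and 165 CPM in D-gel@GSNP and 80, 75.1 and 65 CPM in L-gel@GSNP (1.12; edgeR adjusted p = 1.01e-12), and Pdgfra (1.31) and Erbb2 (0.86) rose. Among BCL2 family genes 5 of 13 rose and 5 fell. The BH3-only killers Bmf, at 1.23, 0.805 and 0.827 CPM in D-gel@GSNP and 9.96, 9.53 and 12.6 CPM in L-gel@GSNP (-3.50; edgeR adjusted p = 4.14e-13), and Bcl2l11 (-1.20) fell, whereas the pore-forming Bak1 (1.18) and its relative Bok (1.51) rose. Junction genes split into 4 higher and 3 lower of 13 (4 and 6 with upper-quartile factors), with desmoplakin, Dsp, higher (0.85) and the tight junction protein F11r lower (-0.68). Of 5 metal response genes 2 rose, Mtf1 (0.32) and Slc39a14 (0.29), and 0 did under upper-quartile factors.

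The other groups show where each level lies. The genes that differed at least 2-fold between the gels were placed on a log2 scale (with 0.1 CPM added) on which the D-gel@GSNP mean is 1 and the L-gel@GSNP mean is 0. For the higher genes the median position was 0.152 for D-gel@NP, 0.376 for PBS and 0.939 for non-SP, and for the lower genes 0.156, 0.407 and 0.962 in the same order. These genes were chosen by the difference that sets the scale, so the positions are a description without a test. Single genes followed this order to different degrees. Tppp3 averaged 12.4 CPM in D-gel@GSNP, 265 CPM in L-gel@GSNP, 259 CPM in D-gel@NP, 295 CPM in PBS and 12.1 CPM in non-SP. Trib3 was high in L-gel@GSNP and D-gel@NP, at 3.28 CPM in D-gel@GSNP, 63.2 CPM in L-gel@GSNP, 74.0 CPM in D-gel@NP, 8.33 CPM in PBS and 4.13 CPM in non-SP. Tmprss6 was high in the same pair of groups, with 0.125 CPM in D-gel@GSNP, 22.7 CPM in L-gel@GSNP, 11.1 CPM in D-gel@NP, 0.365 CPM in PBS and 0.171 CPM in non-SP.

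**Figure D4:**
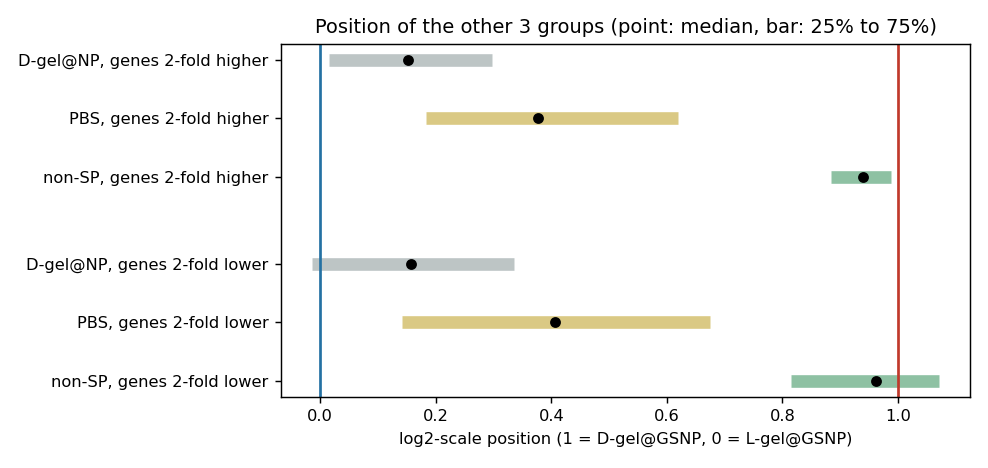
Position of D-gel@NP, PBS and non-SP between L-gel@GSNP (0, blue line) and D-gel@GSNP (1, red line) on the log2 scale, for the 955 genes at least 2-fold higher and the 2465 genes at least 2-fold lower; points are medians over genes and bars run from the lower to the upper quartile. D-gel@NP lies near 0, PBS between and non-SP near 1 in both sets.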

How the data were processed

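The authors deposited 1 table of raw read counts for all genes. Per the submitters' processing notes they used fastp 0.22.0, HISAT2 2.1.0 and featureCounts on GRCm39, and DESeq2 is also named. FPKM values, deposited by the authors for each library, equal the count divided by gene length and library total (relative deviation up to 6.1e-07). Strand and multi-mapping settings are not given in the sources used here, so overlapping and antisense genes cannot be told apart. Low counts (1 to 20) were even numbers in 62.3% to 66.4% of cases, and how read mates were counted is not given, so counting intervals may be too narrow. Symbols were matched by gene identifier (32434 of 34259). Counts of all 15 libraries were fitted in R 4.3.3 with edgeR 4.0.16 (filterByExpr by group, TMM factors, 1 mean per group, glmQLFit and glmQLFTest), and 17497 genes were tested. The biological coefficient of variation was 8.06%. Standard errors were derived as the absolute log2 difference over the square root of the quasi-likelihood F value. The 95% intervals of log2 differences rest on these standard errors. The pipeline was tested on simulated data. The 49 gene lists (920 of 935 symbols in the table), the 8 marker lists and the rule for named genes were chosen with earlier results of these data known. That rule named a panel of 10 genes, the 8 largest rises and the 8 largest falls of called genes whose higher group mean reached 5 CPM and whose libraries did not overlap (names of the form Gm or ending in Rik aside), the 4 largest differences in CPM each way and up to 4 members per list with the lowest adjusted p; other genes are given as list members. Alternatives were other scaling factors and filters, DESeq2 1.42.0, limma 3.58.1 on log2(FPKM + 1) and log2(FPKM + 0.1), a replicate block, leaving out libraries or mitochondrial genes, and thinning to 16.6 M counts. Some list members are not reported here.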

Additional observations from a re-analysis of the deposited data

How the results depend on the processing

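Results below are for D-gel@GSNP minus L-gel@GSNP. Under all alternatives the counts of higher and lower genes kept within 1.5 times of 5339 and 5475: leaving out any of the 6 libraries gave 5000 to 5169 higher and 5109 to 5358 lower genes, and DESeq2 gave 5276 and 5591. Counts past 2-fold depended more on the method. Against 955 higher genes, upper-quartile factors gave 608, limma on log2(FPKM + 1) gave 310, or 307 when no filter was set, and limma on log2(FPKM + 0.1) gave 531. Against 2465 lower genes, limma gave 631, 628 and 1176 in the same order; a pseudocount shrinks folds of low genes by construction. Leaving out a library gave 887 to 977 and 2322 to 2480. The replicate numbers pair no samples by the labels, and deviations of same-numbered libraries correlated at -0.003, -0.019 and -0.022; a fit with the replicate number as a block called 5344 higher and 5456 lower genes, with 953 and 2438 past 2-fold. Single genes were followed for the 209 tested genes picked by the naming rule, and no gene of these reversed. Beside the changes for Dll1, Nes, Abcg2 and Myc given above, calls were lost for Mtf1 and Slc39a14 under upper-quartile factors (edgeR adjusted p = 0.104 and 0.142). With limma on log2(FPKM + 1) without a filter, 1700047I17Rik2, Mtf1, Slc39a14 and Dll1 were lost (limma adjusted p = 0.110, 0.105, 0.136 and 0.0686). Slc39a14 was also lost with the filter (limma adjusted p = 0.0757) and on log2(FPKM + 0.1) (0.0675). Other list members given in the text were not followed singly, and some of their calls changed. With upper-quartile factors the hypoxia and glycolysis list went from 5 to 2 genes higher, and the mitosis list from 0 to 1 lower. Prom1 and Olig2 had too few counts to test. Under about 1 CPM some differences may be undetectable, although 199 higher and 899 lower genes that stayed under 1 CPM were called.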
